A study of Mus musculus with 2 samples.

Results

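Imprinted genes are expressed from only 1 of the 2 parental copies, and 10 of them were followed here across the cells of the mouse neurohypophysis (NH): *Meg3*, *Rian*, *Mirg*, *Mest*, *Nnat*, *Nap1l5*, *Peg3*, *Ndn*, *Snrpn* and *Plagl1*. The genes were chosen on their measured level per cluster and per pool, so those levels are given as a description, with no test. Of the 10 symbols, 9 were rows of both matrices, which list 27998 genes, and of the table of cluster means, which lists 15025 genes. *Rian* was not analysed here. Beside them stood 43 other imprinted genes, of which 41 were rows of the matrices and 32 had at least 1 UMI (unique molecular identifier, the tag that marks 1 captured RNA molecule) in the cells kept. Those other genes carry the only tests.

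The NH was dissected from male wild-type C57BL/6 mice aged 3 months, with no treatment and no second genotype. Each of the 2 pools held the tissue of 5 mice and became 1 10x Chromium version 2 library, so the pool is the replicate and single mice cannot be told apart. The dissected piece carries some of the adjoining intermediate lobe (IL), whose hormone-producing cells are the melanotropes. After filtering, pool 1 held 273 cells with a median of 2050 UMIs and pool 2 held 255 cells with a median of 2330 UMIs, and the pools shared 0 cell barcodes. By the study's cell types these were 196 pituicytes (108 and 88 in pools 1 and 2), 148 IL cells (80 and 68), 95 macrophage/microglia (41 and 54), 42 T-cell like cells, 23 epithelial-like cells, 13 vascular endothelial cells and 11 vascular and leptomeningeal cells (VLMC). Levels below are UMIs summed over the cells of a type in a pool, divided by the total of that sum and scaled to 1000000 (CPM), with an exact 95% Poisson interval that covers counting error only.

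In an imprinted locus, a methylation mark laid down in egg or sperm silences genes on the chromosome of that parent. *Meg3*, *Rian* and *Mirg* are noncoding RNAs made from the maternal chromosome of 1 locus, in which the protein-coding *Dlk1* is made from the paternal one. The other members are made from the paternal copy and encode proteins. Many imprinted genes are known for high expression in brain and endocrine tissue and for roles in growth and metabolism. The matrices count both parental copies together, and inbred mice carry no differences by which the copies could be separated, so the values below are total levels.

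In the mouse genome (GENCODE M21, build GRCm38), *Meg3* lies at chr12:109541001-109571726, *Rian* at chr12:109603940-109661716 and *Mirg* at chr12:109729764-109749460, all on the plus strand. *Dlk1* ends 77664 bases before *Meg3* begins. *Nnat* (chr2:157560078-157562522, plus strand) lies whole inside *Blcap* on the other strand, and *Nap1l5* (chr6:58905233-58907076, minus strand) lies whole inside *Herc3* on the other strand. *Mest* (chr6:30723547-30748465, plus strand) shares 912 bases at its end with *Copg2* on the other strand, while *Peg3* (chr7:6703892-6730431, minus strand) and *Usp29* start 146 bases apart and point away from each other. *Snrpn* (chr7:59982495-60140219, minus strand) contains all 9601 bases of *Snurf* on the same strand. *Ndn* (chr7:62346569-62350262) and *Plagl1* (chr10:13060504-13131694) lie on the plus strand.

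The promoters of 4 members on which the results turn are shown because an imprint acts at or near such sequences. Each is the 250 bases before a start site in RefSeq (GRCm38.p6), read 5′ to 3′ on the strand of the gene. Capitals mark the hexamer TGCCGC or its reverse complement GCGGCA, the letters that the imprint-protecting zinc finger protein ZFP57 reads when their CG is methylated.

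Meg3, chr12:109540746-109540995, plus strand: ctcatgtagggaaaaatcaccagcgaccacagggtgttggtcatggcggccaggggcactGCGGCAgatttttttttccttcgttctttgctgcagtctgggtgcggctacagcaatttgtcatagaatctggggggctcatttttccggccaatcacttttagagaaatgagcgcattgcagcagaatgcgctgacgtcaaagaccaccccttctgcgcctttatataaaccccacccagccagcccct
Mest, chr6:30737800-30738049, plus strand: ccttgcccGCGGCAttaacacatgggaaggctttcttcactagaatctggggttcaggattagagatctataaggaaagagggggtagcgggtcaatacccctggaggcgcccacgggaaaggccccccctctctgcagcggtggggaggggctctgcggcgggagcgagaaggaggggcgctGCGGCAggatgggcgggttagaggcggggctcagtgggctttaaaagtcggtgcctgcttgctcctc
Nap1l5, chr6:58907127-58907376, minus strand: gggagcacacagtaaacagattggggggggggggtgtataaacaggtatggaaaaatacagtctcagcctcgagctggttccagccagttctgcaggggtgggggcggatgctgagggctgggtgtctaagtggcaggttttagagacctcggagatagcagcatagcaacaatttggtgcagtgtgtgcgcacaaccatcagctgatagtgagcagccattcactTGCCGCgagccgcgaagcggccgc
Nnat, chr2:157559828-157560077, plus strand: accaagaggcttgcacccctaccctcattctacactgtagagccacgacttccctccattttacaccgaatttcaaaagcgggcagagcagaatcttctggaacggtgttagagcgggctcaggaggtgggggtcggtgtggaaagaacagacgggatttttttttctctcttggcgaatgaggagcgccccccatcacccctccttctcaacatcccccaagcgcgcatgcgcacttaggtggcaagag

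*Meg3* and *Nap1l5* held 1 match each, *Mest* held 2 and *Nnat* held none in this window. Over the 10 genes, 4 had at least 1 start site with a match in the 250 bases before it (*Meg3*, *Mest*, *Nap1l5*, *Plagl1*). By window, 5 of their 16 held a match, beside 8.68% of all 32851 promoter windows of this length. Of these 5, 2 were *Mest* windows that overlap almost wholly and hold the same matches. Identical windows of a member were counted once, which was not done over all windows, so the shares are not counted alike. CG pairs were counted as well. Their number reached 14 in *Mest*, 12 in *Nnat*, 10 in *Meg3* and 10 in *Nap1l5*, beside a median of 6 over all windows, and was 4 at most in *Snrpn*. A match is a stretch of letters and not a measured binding site.

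The noncoding RNAs and *Mest* also carry microRNAs, so the mature forms that lie inside *Mest* and *Meg3* on the same strand are given from RefSeq, with the seed (bases 2 to 8) in capitals.

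mmu-miR-335-5p: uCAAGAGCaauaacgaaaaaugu
mmu-miR-335-3p: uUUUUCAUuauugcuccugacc
mmu-miR-770-5p: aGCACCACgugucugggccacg
mmu-miR-770-3p: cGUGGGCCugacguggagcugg
mmu-miR-1906: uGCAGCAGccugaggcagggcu

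The first pair lies in *Mest* and the other 3 lie in *Meg3*. *Mirg* holds 14 microRNA genes with 26 mature forms and 25 different seeds. The only seed shared within *Mirg* belongs to the pair below, and no seed recurs within *Mest* or *Meg3*.

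mmu-miR-453: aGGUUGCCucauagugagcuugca
mmu-miR-496a-5p: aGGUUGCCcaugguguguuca

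The libraries count polyadenylated host RNA, so none of these microRNAs was itself measured.

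The cell types carried the markers that their names call for. *Pomc*, the precursor of melanocyte-stimulating hormone, had a UMI in 98.6% of IL cells, *Pcsk2*, a prohormone convertase, in 87.8%, and *Pax7*, the melanotrope transcription factor, in 33.1%. Among pituicytes, the resident astroglia of the NH, *Col25a1* had a UMI in 87.8%, *Scn7a* in 85.2% and *Rax* in 49.0%, and no IL cell held *Nkx2-1*. *Pomc* also had a UMI in 60% of macrophage/microglia, cells that do not make it, at 1038 CPM against 105425 CPM in IL cells. From the *Pomc* UMIs of macrophage/microglia and T-cell like cells, set against the barcodes with 1 to 50 UMIs of pool 1, the share of UMIs that came from free RNA in the droplets was estimated at 6.10% in pool 1 and 5.19% in pool 2. Within IL cells 1 group of markers moved with a pool, the 5 anterior lobe hormone genes (*Gh*, *Prl*, *Tshb*, *Lhb*, *Fshb*). They summed to 149 CPM in the IL cells of pool 1 and 9361 CPM in those of pool 2, with *Lhb* and *Fshb* at 0 in both. Epithelial-like cells went the other way for *Gh*, which was higher there in pool 1 (mean of the pools 17656 CPM, SD 24156).

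*Meg3*, a noncoding RNA of the *Dlk1* locus, was highest in IL cells, intermediate in pituicytes and near 0 in immune cells. In IL cells its level was 14602 CPM in pool 1 (interval 14158 to 15055) and 12279 CPM in pool 2 (11848 to 12721). In pituicytes it was 3255 CPM (3028 to 3493) and 2817 CPM (2614 to 3031). In IL cells the pools differed by more than counting error, since their intervals did not overlap. In both pools the interval of IL cells lay above that of pituicytes. IL cells exceeded pituicytes 4.49-fold in pool 1 (4.15 to 4.85) and 4.36-fold in pool 2 (4.02 to 4.74). Nearly every IL cell took part, since 95.9% of them held a *Meg3* UMI (exact binomial interval 91.4 to 98.5%) beside 86.2% of pituicytes (80.6 to 90.7%). With each cell thinned to 1000 UMIs the shares were 95.3% and 77.0%. The median IL cell held 129 and 117 *Meg3* UMIs per 10000 in pools 1 and 2, and the median pituicyte 29.6 and 26.6.

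*Mirg*, the microRNA host RNA farther along the same locus, showed the same order at far fewer UMIs. IL cells held 30 UMIs in pool 1 (107 CPM, 72.0 to 152) and 16 in pool 2 (64.1 CPM, 36.6 to 104), and pituicytes held 3 and 4. The ratio of IL cells to pituicytes was 8.38 in pool 1 (2.61 to 42.9) and 4.06 in pool 2 (1.31 to 16.7), intervals that are wide because so few molecules were counted. *Meg3* was present in all 24 IL cells of pool 1 and all 13 of pool 2 that held *Mirg*, as it was in 76 of 80 and 66 of 68 IL cells overall. Over the cells, Pearson's r between *Meg3* and *Mirg* was 0.52 and 0.48 on all UMIs but 0.13 and 0.18 after thinning to 1000 UMIs per cell. Cells of a pool share a library and differ in depth, so r is only a description of them.

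*Mest*, which encodes a hydrolase-like enzyme of the endoplasmic reticulum, was the only member higher in pituicytes. Pituicytes held 2801 CPM in pool 1 (2591 to 3023) and 3590 CPM in pool 2 (3361 to 3831). IL cells held 875 CPM (769 to 991) and 629 CPM (535 to 736). Pituicytes exceeded IL cells 3.20-fold in pool 1 (2.76 to 3.72) and 5.71-fold in pool 2 (4.81 to 6.80), so the direction was shared while the size differed between pools by more than counting error. *Mest* had a UMI in 92.9% of pituicytes and 73.6% of IL cells, and in 85.7% and 42.6% after thinning. The IL level was not low: it stood well above the 33.8 and 9.27 CPM of macrophage/microglia, which rest on 3 and 1 UMIs.

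*Nap1l5*, which encodes a protein of the nucleosome assembly family, had the steepest contrast. It reached 608 CPM (520 to 706) and 585 CPM (494 to 688) in the IL cells of pools 1 and 2, against 21.2 CPM (6.89 to 49.5) and 39.5 CPM (18.9 to 72.6) in pituicytes. IL cells exceeded pituicytes 28.7-fold in pool 1 (12.0 to 89.4) and 14.8-fold in pool 2 (7.84 to 31.6). The pituicyte UMIs of *Nap1l5* came from 3 cells in each pool. A *Nap1l5* UMI was found in 68.2% of IL cells and 3.1% of pituicytes, the latter no more than the 4.2% of macrophage/microglia. Median depth was 3143.5 and 3276.5 UMIs in IL cells, 1869 and 2457 in pituicytes and 1777 and 1699 in macrophage/microglia. After thinning the shares were 39.9% of IL cells, 1.0% of pituicytes and 3.2% of macrophage/microglia. At the share of free RNA estimated above, 10.2 and 8.64 CPM of *Nap1l5* would be free RNA. The pituicyte interval includes the first value in pool 1 but lies above the second in pool 2. That share came from macrophage/microglia and T-cell like cells. Pituicytes held *Pomc* at 3565 CPM against 1038 CPM in macrophage/microglia, and their own share of free RNA was not estimated. *Herc3*, the gene around it on the other strand, had 12 and 14 UMIs in IL cells and 1 and 1 in pituicytes.

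*Peg3*, which encodes a large zinc finger protein, was detected in both cell types and higher in IL cells. IL cells held 604 CPM (517 to 702) in pool 1 and 805 CPM (698 to 925) in pool 2, and pituicytes held 255 CPM (194 to 328) and 296 CPM (233 to 371). The ratio was 2.37 (1.76 to 3.24) and 2.72 (2.08 to 3.60). *Peg3* had a UMI in 77.0% of IL cells and 41.3% of pituicytes, and in 42.6% and 24.5% after thinning. It had a UMI in 0 of 95 macrophage/microglia. By the limit of 3 counts, this allows a share of cells with a UMI of up to 3.16% at this depth.

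*Plagl1*, a zinc finger transcription factor that restrains the cell cycle, and *Ndn*, a growth-restraining protein of the MAGE family, lay close to the 2-fold line. *Plagl1* was at 146 and 224 CPM in IL cells and 72.1 and 130 CPM in pituicytes, a ratio of 2.02 (1.12 to 3.79) and 1.72 (1.10 to 2.74). *Ndn* was at 167 and 148 CPM in IL cells and 76.4 and 110 CPM in pituicytes, a ratio of 2.19 (1.25 to 4.0) and 1.34 (0.80 to 2.28). For *Ndn* the interval of pool 2 included equality. *Snrpn*, which encodes a core protein of splicing particles, was at 110 and 92.2 CPM in IL cells and 93.4 and 75 CPM in pituicytes. Its ratio of 1.18 (0.66 to 2.14) and 1.23 (0.64 to 2.39) showed no difference detectable at this depth. *Snurf*, which shares its position and strand, had 0 UMIs in IL cells and pituicytes of both pools.

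*Nnat*, which encodes a small membrane protein of developing neurons and hormone-producing cells, behaved unlike the other members. Its highest level was in the 23 epithelial-like cells, at 3210 CPM in pool 1 (2461 to 4115) and 4958 CPM in pool 2 (4406 to 5559). Few of these cells carried it: 8 of the 23 had a UMI, and 7 held 354 of the 355 UMIs. IL cells held 196 CPM (147 to 255) in pool 1 and 1671 CPM (1515 to 1839) in pool 2, so the pools differed far beyond counting error. Pituicytes also differed between pools, at 25.5 and 189 CPM, and 2 of them held 32 of their 54 UMIs. The ratio of IL cells to pituicytes was 7.68 (3.31 to 21.8) and 8.82 (6.54 to 12.2). *Blcap*, on the other strand around *Nnat*, had 6 and 12 UMIs in IL cells and 15 and 19 in pituicytes, an order opposite to that of *Nnat*.

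**Figure D1:**
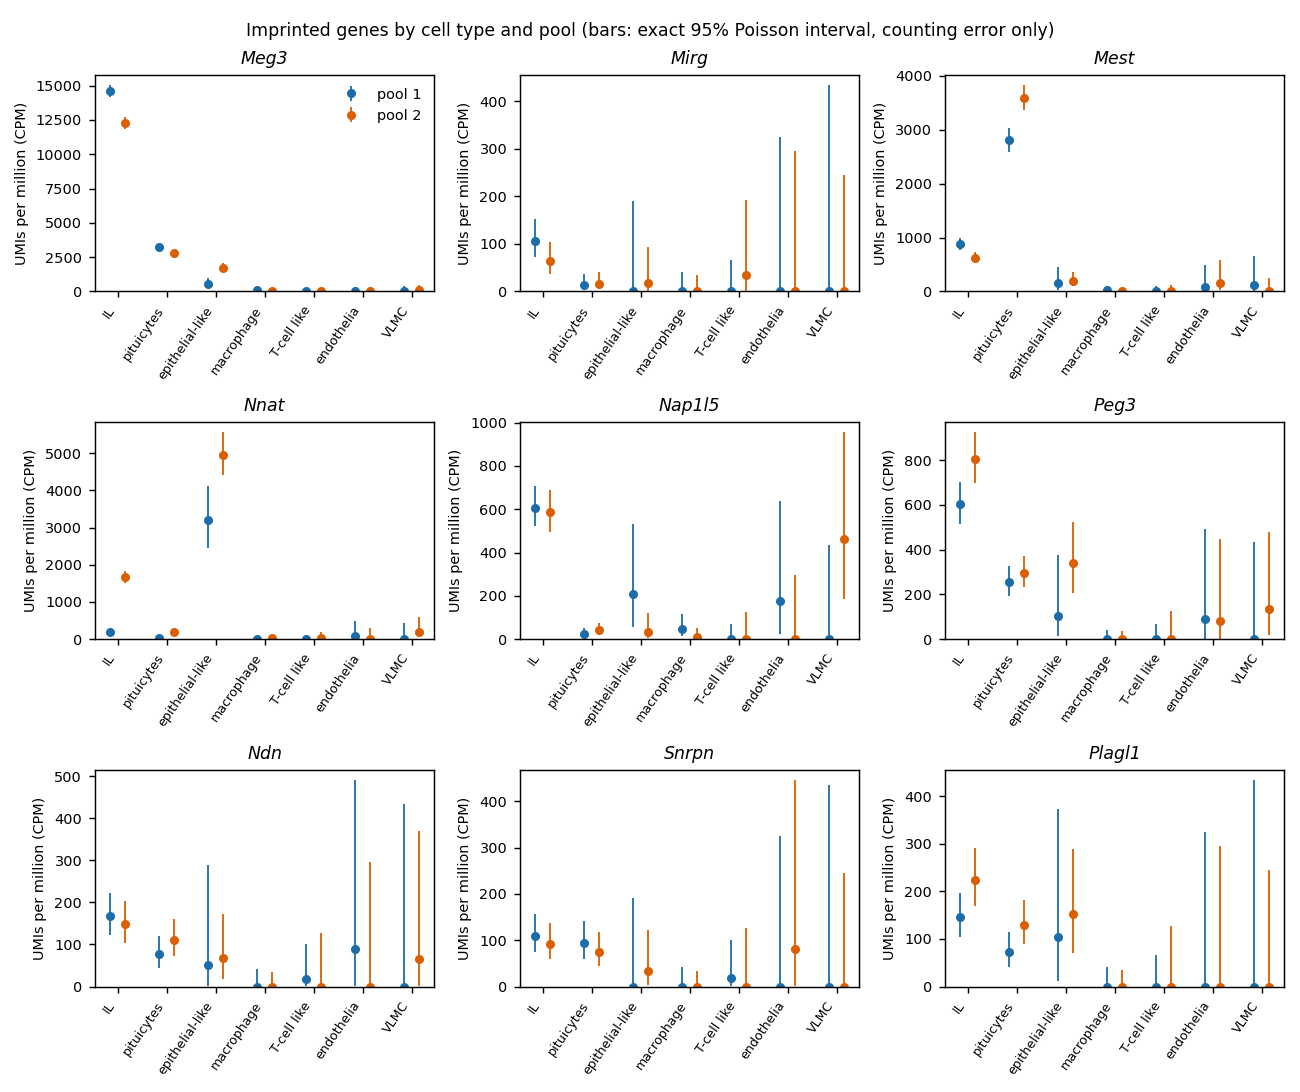
Levels of the 9 imprinted genes in the 7 cell types, in CPM (linear axes from 0), with 1 point per pool and bars for the exact 95% Poisson interval. *Meg3* and *Nap1l5* stand highest in IL cells, *Mest* in pituicytes (2801 and 3590 CPM) and *Nnat* in epithelial-like cells (3210 and 4958 CPM), while the small vascular and VLMC groups have wide intervals.

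By the rule of at least 2-fold in both pools, 5 of 9 members (*Meg3*, *Mirg*, *Nnat*, *Nap1l5*, *Peg3*) were higher in IL cells and 1 (*Mest*) was higher in pituicytes. Over the 8230 genes with at least 15 UMIs in these cell types, the same rule held for 11.2% in the direction of IL cells and 11.8% in that of pituicytes. The members were selected on these levels, so nothing is read from that contrast. *Peg3* was the member just inside the rule, and *Plagl1* and *Ndn* were just outside. The median log2 ratio over the 9 members was 1.25 in pool 1 and 1.44 in pool 2, beside -0.03 and -0.06 over the 8230 genes. Of the other imprinted genes, 21 had enough UMIs for a ratio, and 7 were at least 2-fold higher in IL cells and 3 in pituicytes. Among cell types with at least 20 cells in both pools, *Mest* was highest in pituicytes and the other members in IL cells. This leaves out the epithelial-like cells, where *Nnat* was higher, and the intervals of the *Snrpn* ratio included equality. The share of all genes highest in IL cells was not computed, so nothing is read from this order. As a mean over the pools, the log2 ratio was 4.37 ± 0.67 (SD, n = 2) for *Nap1l5*, 2.14 ± 0.03 for *Meg3*, 1.35 ± 0.14 for *Peg3* and -2.10 ± 0.59 for *Mest*.

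**Figure D2:**
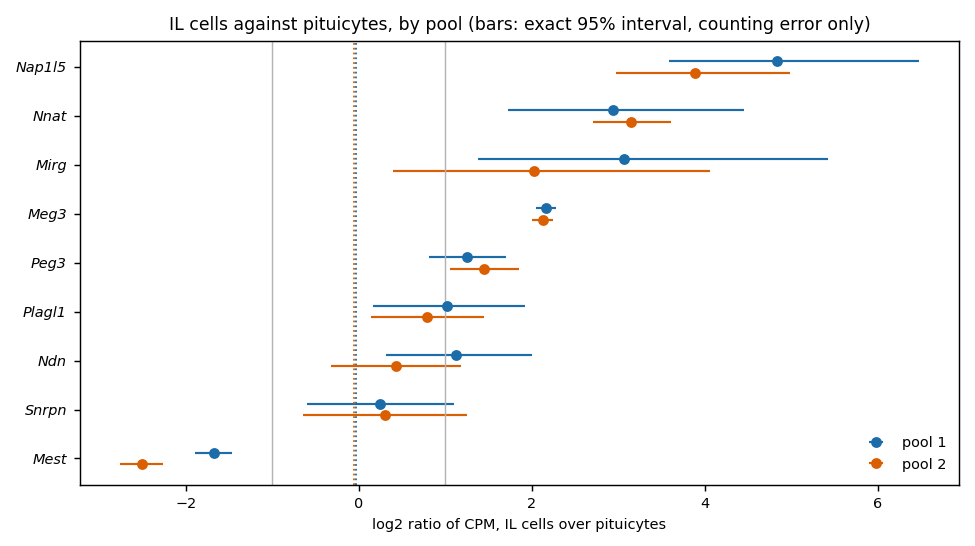
The log2 ratio of CPM in IL cells over pituicytes for each member, with 1 point per pool, bars for the exact 95% interval of the ratio (counting error only), dotted lines at the median of all genes and grey lines at 2-fold either way. *Nap1l5* lies farthest to the right (28.7-fold and 14.8-fold), *Snrpn* near 0, and *Mest* is the only member to the left.

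The deposited table gives the mean of each of the 11 clusters in UMIs per 10000, with the study's IL cells under the names neural progenitor a and b. For *Meg3* the IL clusters were level, at 130 and 132, as were the pituicyte clusters a, b and c at 33.2, 33.9 and 32.1. Within a pool the pituicyte clusters spread more widely, with *Meg3* at 2836, 4463 and 2862 CPM in pool 1 and 3075, 3275 and 1911 CPM in pool 2. *Nap1l5* (5.13 and 5.33), *Peg3* (6.63 and 6.53) and *Mirg* (0.83 and 0.81) were also alike in both IL clusters. *Mest* and *Nnat* set the IL clusters apart in opposite directions. *Mest* was at 5.27 in neural progenitor a and 10.1 in b, and this order held in both pools, at 692 and 1052 CPM in pool 1 and 433 and 914 CPM in pool 2. *Nnat* was at 11.8 in a and 0.43 in b, with 310 and 84.1 CPM in pool 1 and 2808 and 19.7 CPM in pool 2. Since a cluster is built from all genes of its cells, these differences are no test.

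Within the pituicytes, *Mest* ran from 27.4 in cluster b to 36.1 in cluster a. The order was not kept by the pools. As means over cells, clusters a, b and c were at 28.8, 29.5 and 29.2 in pool 1. In pool 2 they were at 40.7, 23.5 and 31.8. As CPM of summed UMIs, in which deeper cells weigh more, cluster a led in both pools, at 3024 and 4065 CPM. By that measure cluster c was lowest in pool 1 (2630 CPM) and cluster b in pool 2 (2122 CPM). *Ndn* was highest in pituicytes a (1.26, against 0.74 and 0.51) and there came close to neural progenitor a (1.28), but few UMIs were counted and the pools differed. By pool, pituicytes a, b and c were at 0.94, 1.0 and 0.61 in pool 1 and 1.46, 0.25 and 0.25 in pool 2. Neural progenitor a was at 1.69 and 0.87. *Snrpn* was at 1.03, 1.0 and 0.60 in pituicytes a, b and c, beside 1.19 and 0.88 in neural progenitor a and b. Pituicytes a and b changed order between the pools, at 1.30 and 0.86 in pool 1 and 0.85 and 1.27 in pool 2. *Plagl1* reached 2.18 in neural progenitor a and 1.73 in the epithelial cluster, above the 0.84 to 1.29 of the pituicyte clusters. Its pools differed too: pituicytes a was at 0.17 in pool 1, on 1 UMI, and 1.27 in pool 2. In pool 2 pituicytes b was at 2.32, on 7 UMIs, above the 1.66 of the epithelial cluster. The 3 pituicyte and 2 IL clusters together held 96.6% of the summed cluster means of *Meg3* and 96.3% of those of *Mest*, but 31.7% of those of *Nnat*.

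**Figure D3:**
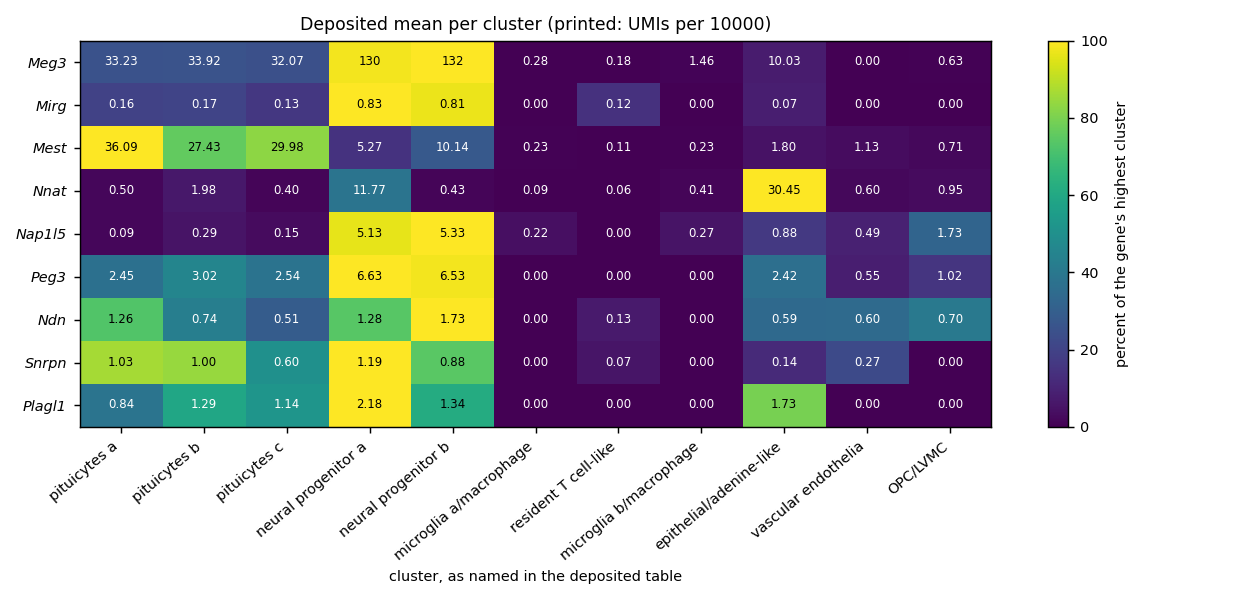
Deposited cluster means of the 9 imprinted genes, printed in UMIs per 10000 and shaded as a percent of the highest cluster of that gene. *Meg3*, *Nap1l5* and *Peg3* are alike in both IL clusters (named neural progenitor), *Mest* is brightest across the pituicyte clusters, and *Nnat* is brightest in the epithelial cluster and in neural progenitor a.

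*Nnat* in IL cells came from few cells. The 8 cells with the most *Nnat* UMIs held 96.4% of the 55 UMIs in pool 1 and 95.4% of the 417 in pool 2. The same measure was 26.5% and 33.7% for *Meg3*, 32.9% and 45.2% for *Mest*, 32.7% and 45.9% for *Nap1l5* and 33.5% and 42.3% for *Peg3*, which were spread over most IL cells. Of the IL cells with a *Nnat* UMI, 8 of 10 in pool 1 and 6 of 17 in pool 2 held the melanotrope gene *Pcsk2*. Of the 148 IL cells, 18 had no *Pcsk2* UMI, and these held 52.7% of the *Nnat* UMIs of pool 1 and 79.4% of those of pool 2. The pool 1 share rests on 1 cell, which held 96.6% of the *Nnat* UMIs of the cells without *Pcsk2*. Of the 11 IL cells with at least 5 *Nnat* UMIs, 3 held *Pcsk2*, 7 held at least 100 *Pomc* UMIs, and 4 held at least 10 UMIs of *Gh* and *Prl*, the hormones of anterior lobe somatotropes and lactotropes. Of the 7 epithelial-like cells with at least 5 *Nnat* UMIs, 3 held at least 10 UMIs of *Gh* and *Prl*. The part of such cells, or of droplets with more than 1 cell, in the *Nnat* level of IL cells was not tested.

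*Dlk1*, the paternally expressed neighbour of *Meg3* that encodes a transmembrane ligand of the Notch family, was also held by few IL cells. Its 16 UMIs in pool 1 lay in 3 cells, none of which lacked *Pcsk2*. Its 67 UMIs in pool 2 lay in 9 cells, with 50 UMIs in cells without *Pcsk2* and 64 in cells with at least 10 UMIs of *Gh* and *Prl*. Of the *Nnat* UMIs of IL cells, 0 of 55 in pool 1 and 301 of 417 in pool 2 lay in such *Gh* and *Prl* cells, which numbered 1 and 8. By contrast, *Meg3* itself was higher in the cells with *Pcsk2*, at 15178 and 12777 CPM against 3180 CPM (2301 to 4283) and 9135 CPM (8149 to 10207) in those without, although the latter are 7 and 11 cells and 1 cell held 86.0% of their *Meg3* UMIs in pool 1. For *Mest*, the IL cells with *Pcsk2* held 878 and 692 CPM and those without held 813 (406 to 1455) and 234 (101 to 462) CPM. Restricted to IL cells with a *Pcsk2* UMI, the log2 ratio to pituicytes stayed near its value in all IL cells for *Meg3* (2.20 against 2.14), *Nap1l5* (4.41 against 4.37), *Peg3* (1.36 against 1.35) and *Mest* (-2.02 against -2.10). For *Nnat* it fell from 3.04 to 1.5, and in pool 2 a single cell held 86.0% of the *Nnat* UMIs of the IL cells with *Pcsk2*.

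**Figure D4:**
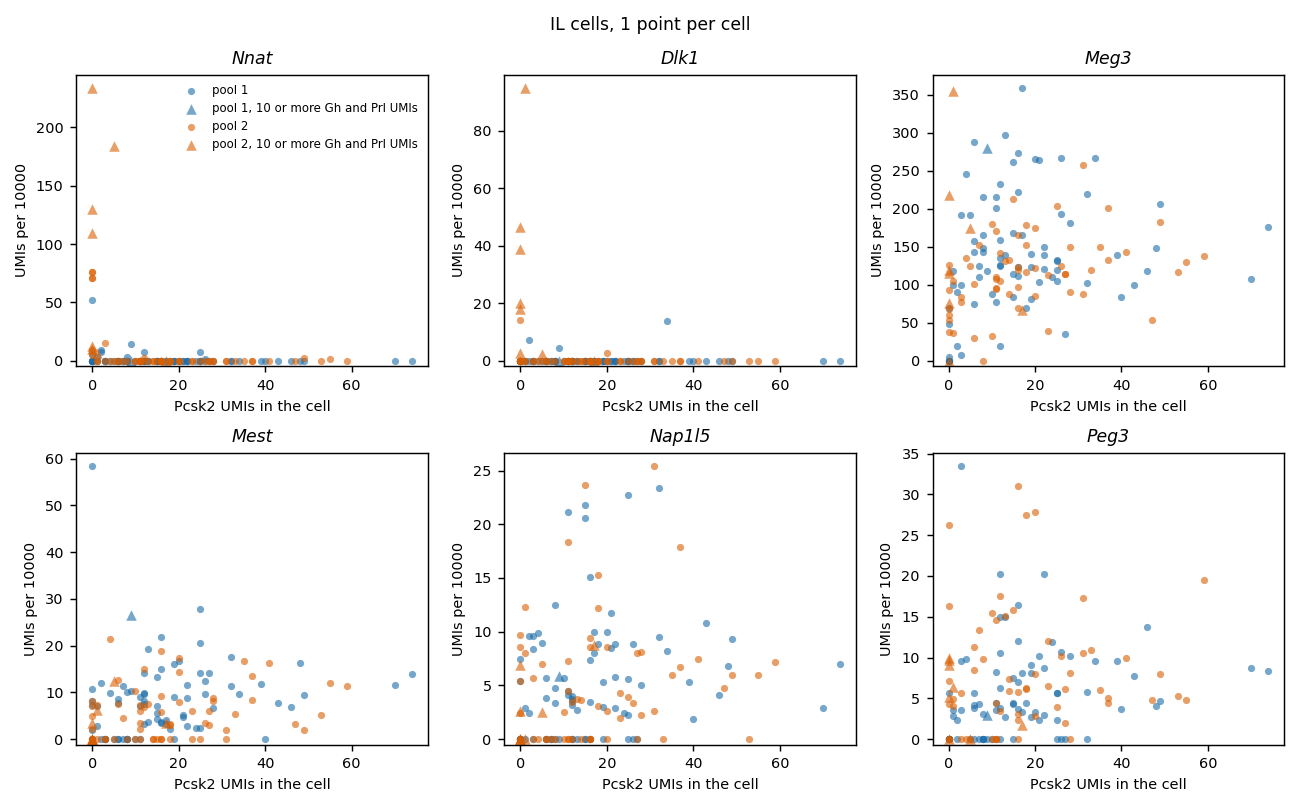
UMIs per 10000 of *Nnat*, *Dlk1*, *Meg3*, *Mest*, *Nap1l5* and *Peg3* in each of the 148 IL cells, against the *Pcsk2* UMIs of the same cell, coloured by pool, with triangles for cells with at least 10 *Gh* and *Prl* UMIs. High *Nnat* and *Dlk1* values gather at few or no *Pcsk2* UMIs, while the other genes are spread along the axis.

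In macrophage/microglia the 9 members had few UMIs or none. There *Mirg*, *Peg3*, *Ndn*, *Snrpn* and *Plagl1* had 0 UMIs in both pools, where a count of 3 would correspond to 33.8 and 27.8 CPM. *Meg3* had 9 and 6 UMIs, or 102 CPM (46.4 to 193) and 55.6 CPM (20.4 to 121), beside 54.0 and 46.0 CPM that free RNA alone would give. The expected values for *Mest* were 37.1 and 31.6 CPM, beside 33.8 and 9.27 measured. For both genes the intervals of the measured levels include the expected ones. In vascular endothelia and VLMC, with 13 and 11 cells, *Meg3* had 0 and 2 UMIs in all, and the 7 *Nap1l5* UMIs in the VLMC of pool 2 came from 2 cells. Epithelial-like cells held *Meg3* at 518 and 1709 CPM and *Peg3* at 104 and 338 CPM.

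Barcodes with 1 to 50 UMIs, which hold free RNA and debris rather than whole cells, could be read in pool 1, where 157608 of them held 1892289 UMIs. There *Snrpn* was at 116 CPM, 1.51 times its level in the kept cells, and *Nnat* at 208 CPM, 1.17 times. *Meg3* was at 885 CPM, 0.127 times, and *Mirg* at 9.51 CPM, 0.202 times. *Ndn* (0.658), *Nap1l5* (0.626), *Mest* (0.465), *Peg3* (0.335) and *Plagl1* (0.240) lay between, and the median over 5307 genes was 0.417. By this ratio *Meg3* was lowest among the members and *Mirg* next, with 2.20% of genes below *Meg3* and 8.74% below *Mirg*, and 99.0% of genes below *Snrpn*. *Mirg* had 18 UMIs in such barcodes and 33 in the kept cells of pool 1, and *Plagl1* had 39 and 60. These counts are too few to set *Mirg* apart from *Meg3* or *Plagl1*.

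To see whether the other imprinted genes follow a like pattern, the cells were clustered again without the members and these other genes among the variable genes. UMI sums per cluster and pool were compared by the edgeR quasi-likelihood test over 5737 genes. The list was drawn up with earlier results of these data known. *Dlk1* and *Usp29* on it lie beside members, so it is not independent of them. The new clusters returned 142 of the 148 IL cells as IL-like, 192 of the 196 pituicytes as pituicyte-like and 94 of the 95 macrophage/microglia as macrophage-like. One of the IL-like clusters, of 81 cells, had *Ptgds*, *Gh*, *Mbp* and *Pomc* among its leading genes, so genes of oligodendrocytes and somatotropes stood beside the melanotrope ones. Genes were called where the p adjusted by Benjamini-Hochberg was 0.05 or less and the natural log fold change 1 or more in size. Of 15 other imprinted genes with enough UMIs, 5 rose and 1 fell in IL-like against pituicyte-like cells, where 8.44% of all genes tested were called higher in IL-like and 10.1% higher in pituicyte-like cells. The list's median log2 fold change was 0.0024, beside 0 over all genes. It was 0.712 with the authors' cell types and 0.392 with a mitochondrial limit of 10%. Those alternatives tested 12 and 14 genes of the list, so the medians are not over the same genes.

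*Gnas*, which encodes the stimulatory G protein subunit, was higher in IL-like cells by 3.13 (SE 0.29) on the log2 scale, with an edgeR adjusted p of 1.75e-25. Its UMIs in IL cells were 1384 and 1085, against 169 and 127 in pituicytes. *Dlk1* was higher by 3.38 (SE 0.51, edgeR adjusted p 6.55e-10), and by 2.26 (SE 0.62, edgeR adjusted p 0.00211) when IL-like cells without *Pcsk2* were left out. With IL-like cells of at least 10 *Gh* and *Prl* UMIs left out, *Dlk1* was higher by 1.23 (SE 0.75) and the call was lost (edgeR adjusted p 0.265). *Usp29*, which encodes a ubiquitin-specific protease and starts beside *Peg3*, was higher by 2.58 (SE 0.43, edgeR adjusted p 4.13e-08). Like *Peg3* it was higher in the IL cells of both pools, with 41 and 48 UMIs against 9 and 8. *Zdbf2*, a zinc finger gene, was higher by 2.31 (SE 0.49, edgeR adjusted p 3.16e-05). In the authors' cell types it had 42 and 22 UMIs in IL cells against 6 and 7 in pituicytes. *Inpp5f*, a phosphoinositide phosphatase, was higher by 1.46 (SE 0.55, edgeR adjusted p 0.0377), a call that was lost in 7 of the 8 alternative fits.

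*Cdkn1c*, a cyclin-dependent kinase inhibitor made from the maternal copy, was the list's only gene called lower. In the authors' cell types it had 47 and 46 UMIs in pituicytes and 2 and 0 in IL cells. The fitted difference was -6.11 (SE 0.67, edgeR adjusted p 3.59e-18) between the new clusters and -5.17 with the authors' cell types. Its size is less certain than this SE conveys, because IL cells held so few UMIs. In the authors' cell types, the counting interval for pituicytes over IL cells was 7.34-fold to 238-fold in pool 1. In pool 2 it began at 11.8-fold and had no upper end. Like *Mest*, it was higher in the pituicytes of both pools. *Ppp1r9a* was lower in IL-like cells by 1.24 without passing the fold limit, and was called with a mitochondrial limit of 10%. *Blcap* was called lower when IL-like cells without *Pcsk2*, or those with at least 10 *Gh* and *Prl* UMIs, were left out. DESeq2 called *Gnas* and *Cdkn1c* alone. *Igf2*, *H19*, *Magel2* and *Dio3* had 0 UMIs in IL cells, pituicytes and macrophage/microglia.

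Against macrophage-like cells, 8 of the 15 rose in pituicyte-like cells and none fell, where 15.5% of all genes tested were called higher. They were *Cdkn1c* (4.87, SE 0.82), *Usp29*, *Zdbf2*, *Blcap* (2.59, SE 0.89), *Sgce* (2.17, SE 0.79), *Impact* (1.94, SE 0.69), *Kcnq1ot1* (1.86, SE 0.36) and *Ppp1r9a* (1.59, SE 0.50). With a mitochondrial limit of 10% the calls of *Usp29*, *Zdbf2*, *Sgce*, *Impact* and *Ppp1r9a* were lost, and by DESeq2 those and that of *Blcap*. In IL-like cells 8 of 15 rose and none fell, where 15.1% of all genes were called higher. They were *Usp29*, *Zdbf2*, *Gnas* (4.02, SE 0.32), *Dlk1* (3.67, SE 0.74), *Impact* (2.45, SE 0.65), *Inpp5f* (1.96, SE 0.82), *Kcnq1ot1* (1.77, SE 0.36) and *H13* (1.62, SE 0.57). The *Dlk1* call was lost without the *Gh* and *Prl* cells (edgeR adjusted p 0.286), and those of *Dlk1*, *H13* and *Inpp5f* by DESeq2. *Usp29* and *Zdbf2* had 0 UMIs in macrophage-like cells. Set against a floor of 3 UMIs over that group, they were 11.5-fold and 8.11-fold higher in IL-like cells. In pituicyte-like cells, where they had 14 and 12 UMIs, they were 2.01-fold and 1.72-fold higher. These folds leave out the counting error of the IL-like and pituicyte-like cells, so they are no strict bounds.

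The list's median log2 fold change against macrophage-like cells was 1.65 in pituicyte-like and 1.62 in IL-like cells, beside 0.16 and 0.20 over all genes. With *Usp29* and *Zdbf2* at their folds over the floor it was 1.08 and 1.62. By DESeq2, where the median also took in list genes below the count filter, it was 0.907 in pituicyte-like cells. At an unadjusted p under 0.05, 11 and 10 of the 15 genes passed, beside 41.3% and 43.2% of all genes tested. With the pool as a block, the *Zdbf2* call in pituicyte-like cells (adjusted p 0.0507) and the *Inpp5f* call in IL-like cells (adjusted p 0.06) were lost. Of all calls in pituicyte-like against macrophage-like cells, 52.1% were higher in pituicyte-like cells, beside 62.4% with library size alone and 40.5% by DESeq2. In IL-like cells the share was 49.3%, or 35.2% by DESeq2. The comparisons share the same macrophage-like sums.

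**Figure D5:**
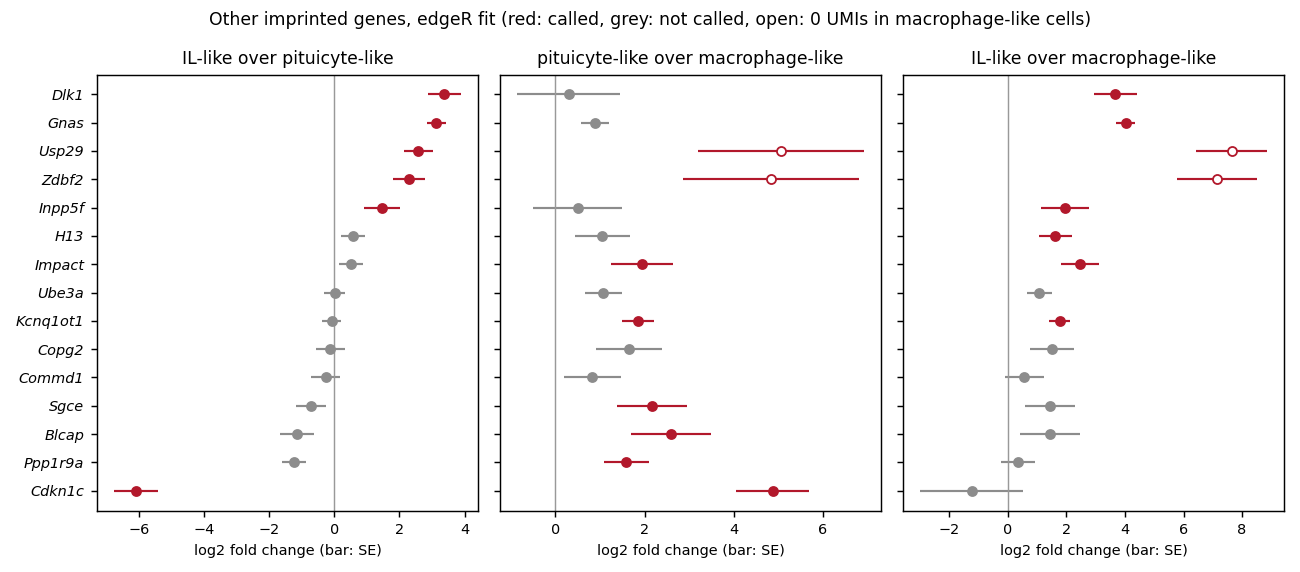
Log2 fold changes from the edgeR fit for the 15 other imprinted genes in 3 comparisons, with bars for the SE computed back from the test. Called genes are red, and points are open where macrophage-like cells had 0 UMIs (the fitted fold is then no bound). *Gnas*, *Dlk1*, *Usp29* and *Zdbf2* lie to the right and *Cdkn1c* to the left in IL-like over pituicyte-like cells, and no called gene lies to the left against macrophage-like cells.

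The genes whose pattern was most like a member's were sought over the 14 sums of type and pool, by Pearson's r of log2(CPM + 50), among 2048 genes with at least 100 UMIs. *Meg3* was closest to *Wdr6* (0.96), *Morn2* (0.95) and *Bex1* (0.94), and *Plagl1* to *Bex1* (0.98), *Gprasp2* (0.96) and *Mageh1* (0.95). *Peg3* was closest to *Snhg9* (0.92), *Cpe* (0.90) and *Bex2* (0.89), and *Ndn* to *Ocrl* (0.90), *Snhg9* (0.89) and *6330403K07Rik* (0.88). *Cpe*, which encodes a carboxypeptidase that trims prohormones, is a gene of secretory cells. *Mest* was closest to *Cacna2d2* (0.93) and *Tle2* (0.90), *Nnat* to *Ly6h* (0.91), *Epcam* (0.91) and *Six6* (0.89), and *Nap1l5* to *Gpx3* (0.84), *Resp18* (0.83) and *Gria2* (0.83). *Epcam* was a marker of the epithelial-like cells, where *Nnat* was highest, but it was not confined to them. Its mean over the pools was 495 CPM in epithelial-like cells, 238 CPM in IL cells and 10.3 CPM in pituicytes. Among the members, *Meg3* was most like *Plagl1* (0.93) and *Peg3* (0.89), while *Mest* was least like *Nap1l5* (0.18) and *Nnat* (0.23). The sums of a pool share 1 library, and the smallest types rest on 5 to 7 cells.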

How the data were processed

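The authors aligned the reads with Cell Ranger (versions 1.2.1, 2.0.0 and 2.1 and STAR 2.5.1b are named in the submitters' processing notes, with build mm10) and deposited 1 matrix of raw UMI counts per pool. A second deposited file, made with Seurat 2.3, gives the normalized signal of every gene averaged over the cells of each cluster of both libraries, in UMIs per 10000. Cells were kept above 1000 and below 10000 UMIs, with 400 to 5000 genes and under 25% mitochondrial UMIs. Each cell was given the cluster whose deposited mean it helps to make up by non-negative least squares (own-cluster weight at least 0.989; 349 of the 15025 recomputed means differed from the deposited ones by over 0.05), and clusters were merged into the study's types. Scrublet marked 5 doublets, which were kept and left out as an alternative.

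For the test, cells were clustered with Seurat 5.3.0 (900 variable genes, 11 components) without the members and the other listed imprinted genes, and named by markers. Counts summed per cluster and pool were fitted with edgeR 4.0.16 (TMM, minimum count 5, minimum total 15, 5 residual degrees of freedom), a design tested on simulated data. Each SE was computed back from the test, as the size of the log2 fold change over the square root of F. The estimate of spread draws on all clusters and genes, so a small p is not the pool-to-pool precision of a single gene. DESeq2 1.42.0 was an alternative. The sums of 1 pool share their mice and library and are therefore paired: the correlation of pool differences between clusters ranged from -0.0167 to 0.206 (median 0.0605, 10 pairs). Genes named are all members, the called genes of the other list (at most 8 per comparison, by fold), genes at a member's locus and the 3 genes most like each member, of which 1 is not reported here. Other genes that are named served as markers or were added after their values were seen (*Ppp1r9a* below the fold limit, and *Igf2*, *H19*, *Magel2* and *Dio3* at 0). The members and lists were chosen with earlier results of these data known. Strand use in counting is not given in the sources used here, so UMIs of genes that overlap on opposite strands may not be separable. The same limit holds for *Snrpn* and *Snurf*, which overlap on the same strand. *Snhg14* and *Peg13* were not analysed here.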

Additional observations from a re-analysis of the deposited data

How the results depend on the processing

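The median log2 ratio of IL cells to pituicytes over the members (1.35, mean of the pools) was 1.69 with a mitochondrial limit of 10%, 1.18 in IL cells with a *Pcsk2* UMI and 0.744 in those without (both chosen after seeing the data), and 1.25 to 1.44 when 1 pool was left out. Among IL cells, pituicytes and macrophage/microglia, the members other than *Mest* were highest in IL cells in each pool, so leaving out a pool could not change this. With the new clusters *Snrpn* was no longer among them. The log2 ratio of *Meg3* (2.14) was 2.68 with a mitochondrial limit of 10% and 1.98 as a mean over cells. The mean *Meg3* and *Mirg* correlation (0.156 after thinning, 0.135 to 0.177 by pool) was 0.499 on all UMIs. No member changed direction in any alternative that gave a ratio, though *Snrpn* came to 0.00224 with the new clusters and *Ndn* to 0.0188 in IL cells without *Pcsk2*. *Nap1l5* and *Plagl1* gave no ratio at the 10% limit, nor *Mirg* and *Plagl1* in IL cells without *Pcsk2*.

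Calls among the other imprinted genes in IL-like against pituicyte-like cells (6) were 2 by DESeq2, and over all genes 1063 fell to 344 by DESeq2 and 514 at the 10% limit. The main fit tested 5737 genes, DESeq2 6172, the 10% limit 4263 and the authors' cell types 4510. Of the list, these fits tested 15, 15, 14 and 12 genes. Counts of calls are therefore not over the same genes, and a missing call can mean an untested gene. In pituicyte-like against macrophage-like cells, 8 calls were 2 by DESeq2, 5 with the authors' cell types and 3 at the 10% limit (all genes 1709, against 850 by DESeq2 and 1041 at that limit). In IL-like against macrophage-like cells, 8 calls were 5 by DESeq2 (all genes 1757 against 869). With the pool as replicate block, the calls were 6, 7 and 7, and no other call among the other imprinted genes changed than the *Zdbf2* and *Inpp5f* calls named above. Leaving out IL-like cells with at least 10 *Gh* and *Prl* UMIs (chosen after seeing the data) gave 5, 8 and 6 calls, without the *Dlk1* and *Inpp5f* calls. Library size alone moved the median log2 fold change of all genes from 0.164 to 0.475 in pituicyte-like and from 0.199 to 0.409 in IL-like cells against macrophage-like cells. The causes were not tested. Leaving out 1 pool leaves no residual degrees of freedom, so it gave values for the members only. The depth, a median of 2050 and 2330 UMIs per cell, limits *Mirg*, *Ndn*, *Snrpn* and *Plagl1* most, and 2 pools give no estimate of spread beyond these libraries.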
